A study of Homo sapiens with 24 samples.

Results

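Transcripts of 8 genes that make polyamines or control their level were followed in K562 cells over 24 time points after elutriation. The genes are ODC1, SRM, SMS and AMD1 for synthesis, OAZ1, OAZ2 and AZIN1 for the control of ornithine decarboxylase, and SAT1 for the acetylation that precedes export and breakdown. They were chosen by name, their symbols were matched to the Ensembl identifiers of the expression table, and all 8 were among its 12285 genes and passed the filter of at least 1 FPKM on average. The samples came from K562, an established human leukaemia line with erythroid features, grown in RPMI medium with bovine calf serum and antibiotics. A synchronous population was collected by centrifugal elutriation, which separates cells by size, and 1 library was made every 2 h from 0 h to 46 h. No time point had a replicate, so each value is that of a single library and time was the only variable. The study looked for time points at which many transcripts depart from their neighbours, which it calls STRIPEs, with 16 h and 18 h as the clear cases in these cells and 32 h as a milder one. Some fits here also left out 6 h, a time point that the study did not name as a STRIPE.

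Polyamines are small positively charged molecules that bind nucleic acids and are needed for growth and translation. Ornithine decarboxylase (ODC1) turns ornithine into putrescine, and spermidine synthase (SRM) and spermine synthase (SMS) extend it to spermidine and spermine with aminopropyl groups that S-adenosylmethionine decarboxylase (AMD1) supplies. When polyamines are plentiful, ribosomes reading antizyme mRNA shift frame and make antizyme (OAZ1, OAZ2), which carries ornithine decarboxylase to the proteasome, while antizyme inhibitor (AZIN1) takes antizyme away from the enzyme. Spermidine/spermine acetyltransferase (SAT1) marks polyamines for oxidation or export. Much of this control acts on translation and protein stability, which transcript levels do not report.

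The summed FPKM of a library lay between 456791 and 520382 at 22 time points, and was 566247 at 16 h and 591309 at 18 h. Read counts were not used here, so the depth behind single values is unknown. All 9 erythroid markers were in the table, with a sum of 4085 to 7933 FPKM at the 22 time points and of 3084 and 2784 FPKM at 16 h and 18 h. Of 4 fibroblast markers COL1A2 alone was present, at 1.70 to 3.94 FPKM. The summed level of 6 S phase genes was highest at 6 h, and outside 16 h and 18 h that of 6 G2/M genes was highest at 20 h. Levels below are given for the 22 other time points unless 16 h and 18 h are named, and an SD is the spread over time points, not over replicates.

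The frameshift sites of both antizymes are shown because they carry the translational control named above, and because the antizyme transcripts departed most from their neighbours at 16 h and 18 h. Each window is 30 bases of the sense strand read 5′ to 3′ from GENCODE 29 transcripts, with the last sense codon and the UGA stop that is bypassed in capitals (TCCTGA in DNA letters).
OAZ1: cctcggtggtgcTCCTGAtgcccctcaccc
OAZ2: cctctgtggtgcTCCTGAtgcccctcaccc
The OAZ1 window lies at chr19:2271428-2271457 on the plus strand of GRCh38. It is part of a coding exon in 1 OAZ1 transcript, of an exon in 6 further transcripts, and is interrupted by a gap of 1 base in 2 more. The OAZ2 window lies at chr15:64691501-64691530 on the minus strand, in an exon of 5 OAZ2 transcripts, with the same gap of 1 base in 3 more. The windows were identical at 29 of 30 positions, and the difference is G5T, with the OAZ1 base first and positions counted from 1 at the 5′ end.

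Of the 7 members with a RefSeq promoter entry used here (300 bases, 250 before to 50 after a start, GRCh38.p14), 2 held the E-box CACGTG, the site bound by MYC with its partner MAX. These are ODC1 and SRM, the synthesis genes whose levels were lower on the second day, and their windows are shown for that reason, on the sense strand with each E-box in capitals.
ODC1: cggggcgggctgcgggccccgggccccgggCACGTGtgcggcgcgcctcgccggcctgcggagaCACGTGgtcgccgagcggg
SRM: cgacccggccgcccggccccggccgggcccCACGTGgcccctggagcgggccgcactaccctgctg
The ODC1 window lies at chr2:10447989-10448071 on the minus strand. Its first E-box begins 29 bases before a RefSeq start and its second begins 5 bases past that start. In GENCODE 29 both lie in intron 1 of 2 ODC1 transcripts and upstream of the other 2, and the window of the other RefSeq start of ODC1 held no CACGTG. The SRM window lies at chr1:11060182-11060247 on the minus strand, with its E-box beginning 199 bases before the start and upstream of all 6 SRM transcripts. Counted on both strands, CACGTG was present in 7.26% of the 35116 promoters of the table. Of the other motifs searched, CCAAT was in a window of 5 of the 7 members (34.6% of all promoters), TATAAA in that of OAZ1 alone (11.5%) and GGGCGG in those of 6 (45.0%). The percentages count windows, of which the 7 members had 10. CACGTG was in 2 of these 10, CCAAT in 5, TATAAA in 1 and GGGCGG in 9. AZIN1 was not searched, because its chromosome was left out for the members, while the 35116 promoters kept it. A match of letters is not evidence that a factor binds.

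The members spanned a wide range of levels, with antizyme OAZ1 and the enzyme it controls at the top. On the FPKM scale, which is per transcript length, OAZ1 (ENSG00000104904) averaged 552 ± 76.2 (SD over 22 time points) and ODC1 (ENSG00000115758) 368 ± 55.8. Spermidine synthase SRM (ENSG00000116649) followed at 220 ± 44.4 FPKM. AMD1 (ENSG00000123505) at 75.1 ± 7.28 FPKM, SMS (ENSG00000102172) at 71.2 ± 3.83 FPKM and AZIN1 (ENSG00000155096) at 59.5 ± 4.93 FPKM formed a middle group. SAT1 (ENSG00000130066) at 27.2 ± 6.17 FPKM and the second antizyme OAZ2 (ENSG00000180304) at 24.7 ± 2.35 FPKM were lowest. The ranges over time did not overlap between SRM and AMD1, nor between AZIN1 and SAT1, so 3 tiers were separate. Within the tiers neighbouring ranges overlapped. OAZ1 was nevertheless above ODC1, ODC1 above SRM and SMS above AZIN1 at 22 of 22 time points, whereas AMD1 was above SMS at 18 and SAT1 above OAZ2 at 11 of 22. OAZ1 exceeded OAZ2 by a factor of 17 to 27.7.

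**Figure D1:**
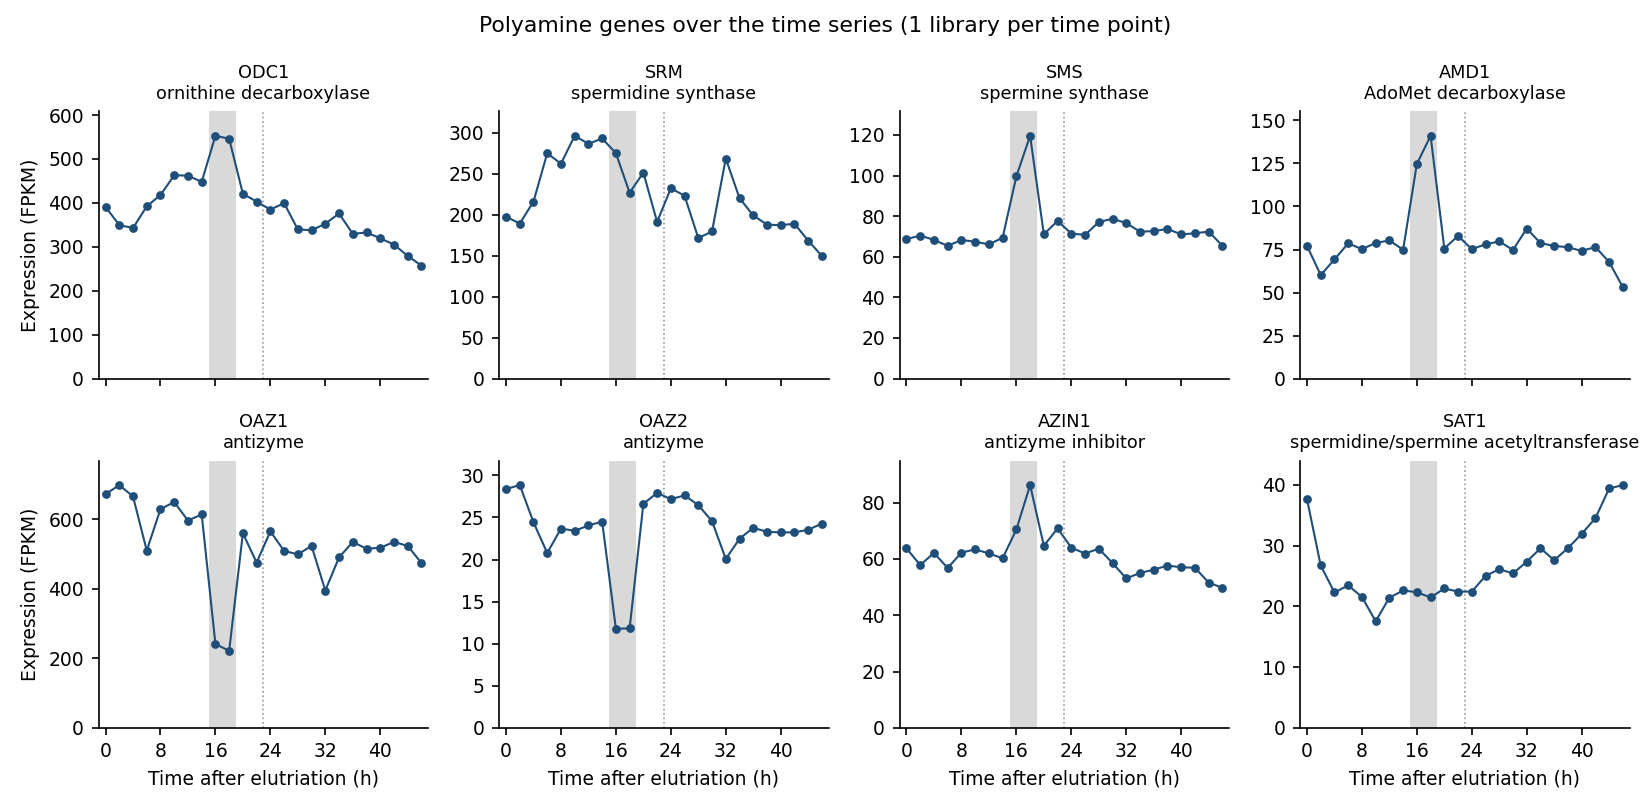
FPKM (vertical axes, each from 0) of the 8 members against time after elutriation in hours, 1 point per library. The grey band marks 16 h and 18 h and the dotted line divides the days. ODC1 and SRM end at 257 and 150 FPKM, SAT1 ends at 40.0 FPKM, and OAZ1 and OAZ2 have their lowest values, 221 and 11.8 FPKM, inside the band.

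Ornithine decarboxylase transcripts were lower on the second day, mainly at the later matched hours. On the first day ODC1 lay between 343 FPKM at 4 h and 463 FPKM at 10 h with a median of 410.5 FPKM (10 time points), and on the second day between 257 FPKM at 46 h and 399.5 FPKM at 26 h with a median of 335 FPKM (12 time points). The ranges overlapped, but 6 of 10 first-day values were above every second-day value and 8 of 12 second-day values were below every first-day value. Over all 12 matched hours, 16 h and 18 h included, the means were 432 ± 66.7 and 334 ± 41.5 FPKM (SD, 12 time points each). The difference was -0.37 on the log2(FPKM + 1) scale (SE 0.091, limma adjusted p = 0.0159), and the second day was lower at 11 of 12 matched hours. It was not even over the hours, with -0.023 at 0 h, 0.192 at 2 h and -0.014 at 4 h. Later pairs differed by more, with -0.214 at 6 h, -0.487 at 12 h and -0.645 at 22 h. The last 3 values, 305 FPKM at 42 h, 279 FPKM at 44 h and 257 FPKM at 46 h, were also the 3 lowest of the series. Without the pairs that hold 16 h and 18 h the difference was -0.28 (limma adjusted p = 0.0321), without those that hold 0 h, 44 h and 46 h it was -0.35 (limma adjusted p = 0.0581), and without those that hold 6 h, 16 h, 18 h and 32 h it was -0.29 (limma adjusted p = 0.0727), so the call was lost in the last 2 fits.

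Spermidine synthase moved in the same direction. SRM lay between 189 FPKM at 2 h and 296.5 FPKM at 10 h on the first day, with a median of 257 FPKM, and between 150 FPKM at 46 h and 269 FPKM at 32 h on the second, with a median of 188.5 FPKM. The second day held 7 of 12 values below every first-day value, and its one value near the first-day maximum was that of 32 h, the mild STRIPE. The difference was -0.31 (SE 0.089, limma adjusted p = 0.0297), with lower values at 9 of 12 matched hours. It was about as large without the pairs that hold 16 h and 18 h (-0.30) or without those and the pairs of 6 h and 32 h (-0.30), where limma gave adjusted p = 0.0504 and adjusted p = 0.0882. An exact sign-flip permutation test over the 12 hours, adjusted over all genes, gave p = 0.0514.

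In these 12 matched hours, 2 of 8 members were called lower on the second day and none higher by limma, against 5.16% of 12253 genes called lower and 9.57% called higher. The unadjusted limma p was 0.0118 for SAT1 (higher) and 0.0188 for AZIN1 (lower), and neither passed after adjustment. The share of all genes with an unadjusted p under 0.05 was not counted, so these 2 values have no background here. Among the members, the exact sign-flip permutation test with adjustment over all genes called ODC1 alone. The median difference was -0.09 over the members and -0.01 over all genes. The limma model treats matched hours as independent pairs of samples, while successive time points of 1 culture need not be, and with 1 library per time point a later hour and a later library cannot be told apart.

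**Figure D2:**
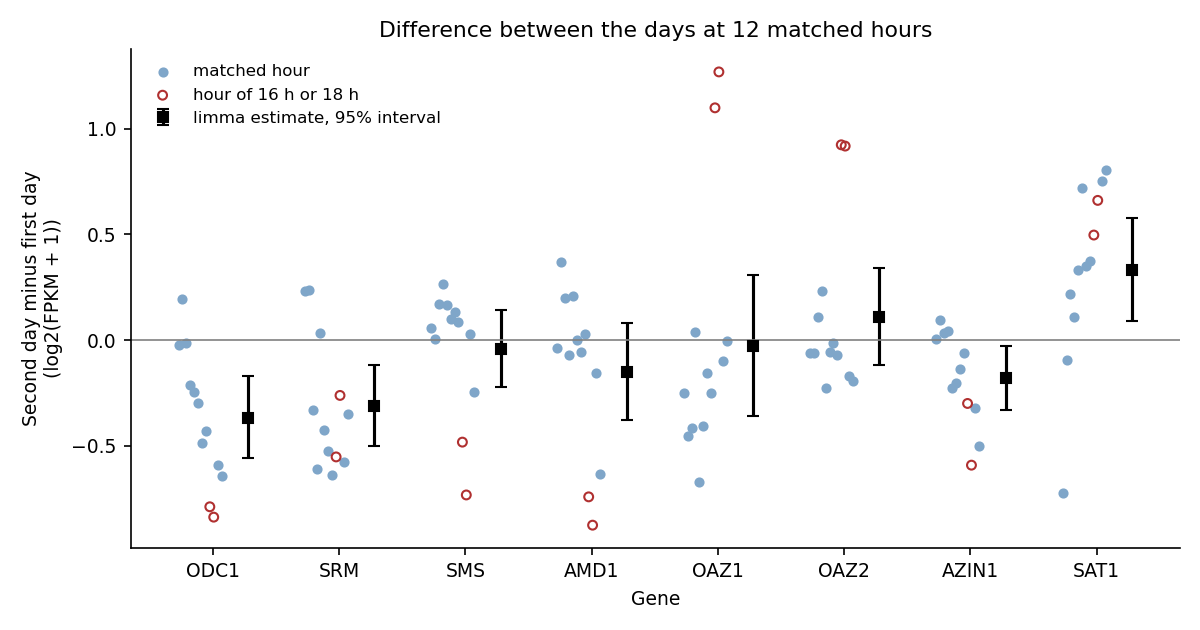
Second-day minus first-day value in log2(FPKM + 1) for each member (vertical axis), with 1 point per matched hour, open circles for the hours of 16 h and 18 h, and a black square with its 95% interval for the limma estimate. ODC1 and SRM lie below 0 at 11 and 9 of 12 hours, SAT1 lies above 0 at 10, and the open circles of OAZ1 and OAZ2 stand far above their other points.

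Spermine synthase was the flattest member. SMS stayed between 65.4 FPKM at 6 h and 78.7 FPKM at 30 h with a median of 71.0 FPKM, a span of 1.20-fold. The median span over genes that averaged 10 FPKM or more was 1.58-fold, and 1.07% of these 7169 genes spanned less than SMS. Its day difference was -0.04 (95% interval -0.22 to 0.14, limma adjusted p = 0.797). Without the pairs that hold 16 h and 18 h it was 0.08 (95% interval -0.03 to 0.19), with higher second-day values at 9 of 10 matched hours.

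AMD1, whose product supplies the aminopropyl donor for both synthases, lay at 53.1 FPKM at 46 h, at a median of 76.4 FPKM, and at 87.2 FPKM at 32 h. Its 2 lowest values were those of 46 h and of 2 h (60.2 FPKM), and its first-day and second-day medians were both 76.4 FPKM. The day difference was -0.15 (95% interval -0.38 to 0.08, limma adjusted p = 0.372), and it was -0.02 without the pairs that hold 16 h and 18 h. Processed pseudogenes of AMD1 and SRM exist, and how reads shared with them were counted is not given in the sources used here.

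The call for antizyme OAZ1 turned on the STRIPE time points. OAZ1 lay between 475.5 FPKM at 22 h and 698 FPKM at 2 h on the first day, with a median of 621.5 FPKM, and between 395 FPKM at 32 h and 565 FPKM at 24 h on the second, with a median of 517 FPKM. At 16 h and 18 h it was 241 and 221 FPKM, below all other values. With all 12 matched hours the day difference was -0.03 (SE 0.157, limma adjusted p = 0.931). Without the pairs that hold 16 h and 18 h it was -0.27 (SE 0.069, limma adjusted p = 0.0184), with lower second-day values at 9 of 10 matched hours and 7 of 10 first-day values above every second-day value. In that fit, 6.80% of genes were called lower and 12.6% higher, and ODC1 and OAZ1 were the members called. Leaving out 6 h and 32 h as well gave -0.25 for OAZ1 (limma adjusted p = 0.0235).

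OAZ2, the second and much less abundant antizyme, lay between 20.1 FPKM at 32 h and 28.8 FPKM at 2 h with a median of 24.2 FPKM. Values of 26 FPKM or more were those of 0 h, 2 h and of 20 h to 28 h. Its day difference was 0.11 (limma adjusted p = 0.515) and, without the pairs that hold 16 h and 18 h, -0.05 (95% interval -0.16 to 0.06). Antisense transcripts overlap OAZ2 and AZIN1, other genes overlap OAZ1, and a small nucleolar RNA lies inside ODC1. As strand use in counting is not stated, these values may include reads of both partners.

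AZIN1, the antizyme inhibitor, lay between 49.7 FPKM at 46 h and 70.8 FPKM at 22 h with a median of 59.4 FPKM. The second day held 5 of 12 values below every first-day value. The difference of -0.18 (95% interval -0.33 to -0.03) did not pass the threshold (limma adjusted p = 0.0896), and without the pairs that hold 16 h and 18 h it was -0.13 (95% interval -0.26 to 0.01).

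SAT1, the acetyltransferase on the catabolic side, had the widest span of the 8 members. It lay at 37.7 FPKM at 0 h, was lowest at 17.5 FPKM at 10 h, stayed between 21.4 and 22.95 FPKM at 12 h, 14 h and from 20 h to 24 h, and was highest at 40.0 FPKM at 46 h. The span of 2.28-fold was wider than that of 91.1% of genes that averaged 10 FPKM or more. Both ends of the series were high, and from 40 h on each value was above the one before it. On the second day 2 of 12 values exceeded every first-day value, and 5 of 10 first-day values lay below every second-day value. The day difference was 0.33 (95% interval 0.09 to 0.58), higher at 10 of 12 matched hours, and did not pass the threshold (limma adjusted p = 0.0675). Without the pairs that hold 0 h, 44 h and 46 h it was 0.35 (limma adjusted p = 0.0259), and with the GC trend of each time point removed it was 0.39 (limma adjusted p = 0.0458). It was 0.29 without the pairs that hold 16 h and 18 h (limma adjusted p = 0.134) and 0.30 without those and the pairs of 6 h and 32 h (limma adjusted p = 0.209), the exact sign-flip permutation test gave an adjusted p = 0.105, and it passed in 2 of 9 alternatives on the FPKM scale.

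The transcripts of ODC1 and SRM ran opposite to those of SAT1 over the series, which those of the other synthesis genes did not do as closely. Across 22 time points, which share their libraries and follow each other in time, Spearman's rho was 0.85 between ODC1 and SRM (Pearson's r 0.84), -0.80 between ODC1 and SAT1 (r -0.80) and -0.71 between SRM and SAT1 (r -0.73). With SAT1, AMD1 had a rho of -0.30 (r -0.43) and SMS one of 0.26 (r 0.07). Within the 10 first-day points rho was 0.79 for ODC1 with SRM and -0.61 for ODC1 with SAT1, and within the matching 10 second-day points it was 0.79 and -0.79. Leaving out the 2 time points at which ODC1 lay farthest from its median gave r of 0.78 with SRM and -0.67 with SAT1. AZIN1 also ran against SAT1, with rho -0.64 over 22 points. Within the matching 10 second-day points its rho was -0.85, and over the whole second day -0.77 (12 points). On the first day AZIN1 did not run against SAT1 (rho -0.15, 10 points). The antizymes ran less closely together, with rho 0.36 and r 0.45 over 22 points. Over all 24 points, which include the low values of both at 16 h and 18 h, rho was 0.50 and r was 0.89.

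**Figure D3:**
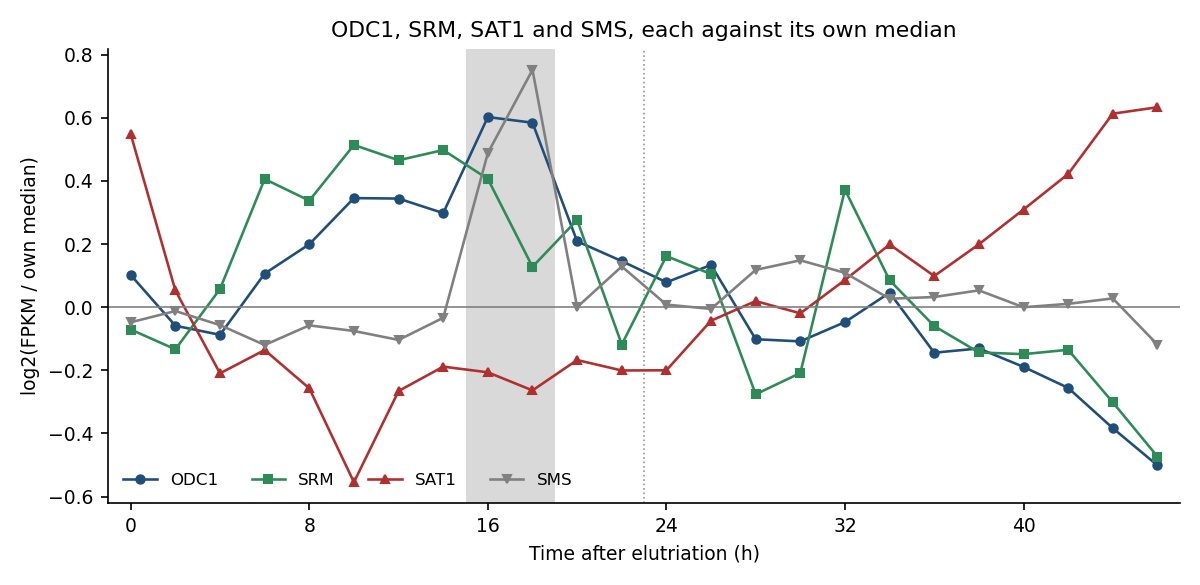
log2 of FPKM over the gene's own median (vertical axis) against time after elutriation in hours for ODC1, SRM, SAT1 and SMS, 1 point per library, with the grey band at 16 h and 18 h and the dotted line between the days. ODC1 and SRM are highest and SAT1 lowest at 10 h among the points outside the band, the order is turned round at 46 h, and SMS stays within 1.20-fold outside the band.

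The ratio of ODC1 to SAT1 gives the same contrast within each library, where a scaling of the whole library cancels. It started at 10.4, reached 26.4 at 10 h, and its second-day values ran from 17.1 at 24 h down to 6.43 at 46 h, with medians of 18.2 on the first day (16 h and 18 h left out) and 12.3 on the second. The ratio of ODC1 to OAZ1, the enzyme and its inhibitor, varied less in proportion. It was 0.581 at 0 h, 0.847 at 22 h and 0.543 at 46 h. Its medians were 0.721 on the first day, again without 16 h and 18 h, and 0.645 on the second. It lay between 0.501 at 2 h and 0.892 at 32 h with a median of 0.672, so that OAZ1 transcripts exceeded those of ODC1 at each of the 22 time points. In the 16 h library it was 2.29 and in the 18 h library 2.47. The ratio of ODC1 to AZIN1 lay between 5.17 at 46 h and 7.46 at 12 h, and that of SRM to SMS between 2.23 at 28 h and 4.4 at 10 h.

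**Figure D4:**
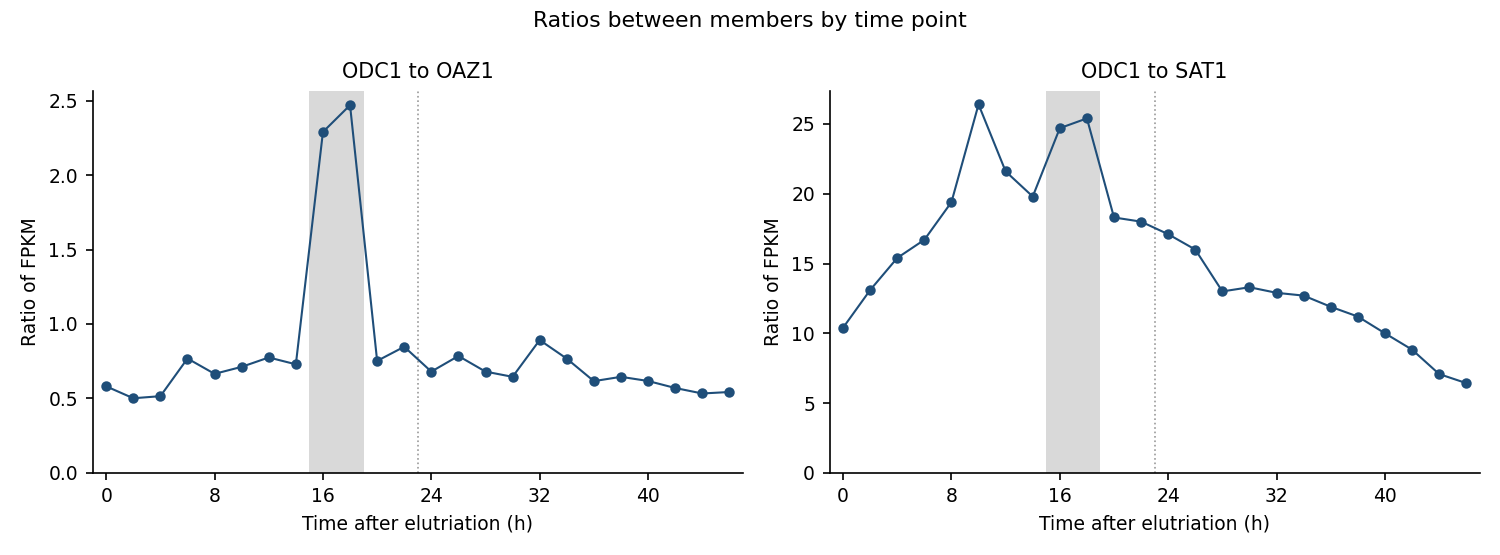
Ratio of the FPKM of ODC1 to that of OAZ1 (left) and of SAT1 (right) on axes that start at 0, against time after elutriation in hours, 1 point per library. ODC1 to OAZ1 stays below 1 except in the grey band of 16 h and 18 h (2.29 and 2.47), and ODC1 to SAT1 is highest at 10 h (26.4) and lowest at 46 h (6.43).

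A repeat of the profile after 24 h was examined with JTK, which ranks a gene by the best Kendall score (S) of its values against cosines of 24 h with 12 starting phases. Its permutation p takes the time points as exchangeable, which successive time points need not be. A slow drift also lowers this p, so a call is not by itself evidence of a repeat after 24 h. OAZ2 alone among the members was called (S = 124, peak at 2 h, adjusted permutation p = 0.0479), which is 1 of 8 against 13% of all genes. For the other 7 the adjusted permutation p lay between 0.273 (SRM) and 0.796 (ODC1). The OAZ2 call was lost without 16 h and 18 h, where it was at its lowest (adjusted permutation p = 0.0536), in the cleaned table (0.131) and with periods of 20 h (0.409) and 28 h (0.127). It was kept without 6 h, 16 h, 18 h and 32 h (adjusted permutation p = 0.0365). As a description, rho between the first-day and second-day values at 10 matched hours was 0.56 for OAZ2 and between -0.65 (SMS) and 0.09 (SRM) for the others, with a median over all genes of 0.09.

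The 16 h and 18 h STRIPE split the members. Against the straight line from 14 h to 20 h, OAZ1 lay 1.34 log2 units below, or 2.53-fold, with 614 FPKM at 14 h, 241 and 221 FPKM at 16 h and 18 h, and 560 FPKM at 20 h. OAZ2 lay 2.07-fold below its line, with 24.5, 11.8, 11.8 and 26.6 FPKM at these 4 time points. Both antizymes thus had their lowest values of the series in these libraries, without overlap with any other time point. The synthesis genes AMD1 and SMS were high instead. AMD1 had 74.9, 125, 141 and 75.6 FPKM, 1.75-fold above its line, and SMS had 69.4, 99.6, 120 and 71.0 FPKM, 1.55-fold above. ODC1 (0.34) and AZIN1 (0.32) lay above by less on the log2 scale, and SRM (-0.12) and SAT1 (-0.05) were, as deposited, within the range of the same measure at 16 other consecutive pairs.

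With the other 6 members outside that range, the share was 6 of 8, and 71.6% of all genes were outside theirs. None of the members reached 2-fold above the line (8.95% of all genes did) and 2 reached 2-fold below it (7.11%). The scale of the libraries shifted the smaller values: with upper-quartile scaling ODC1 was at 0.10, AZIN1 at 0.08, SRM at -0.35 and SAT1 at -0.28, while OAZ1 was at -1.57, OAZ2 at -1.27, AMD1 at 0.58 and SMS at 0.40. The median over all genes was 0.14 as deposited and -0.06 with that scaling.

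The deviation of all genes followed the GC content of their transcripts, with medians of 0.54, 0.32, -0.04 and -0.50 log2 units in 4 equal groups from the lowest to the highest GC content. Among the members AMD1 (37.7% GC) was highest and OAZ1 (59.2% GC) lowest, but SRM had the most GC (64.2%) and deviated by -0.12, and OAZ2 was at 53.7%. After a smooth GC trend over all genes had been removed, OAZ2 remained at -1.0 and OAZ1 was at -0.97, just inside the 2-fold line. SMS was then at 0.45, AMD1 at 0.23, ODC1 at 0.19 and AZIN1 at -0.18. SRM was at 0.53 and SAT1 at -0.48, so both moved away from 0. The part of GC content in these values was not tested further.

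**Figure D5:**
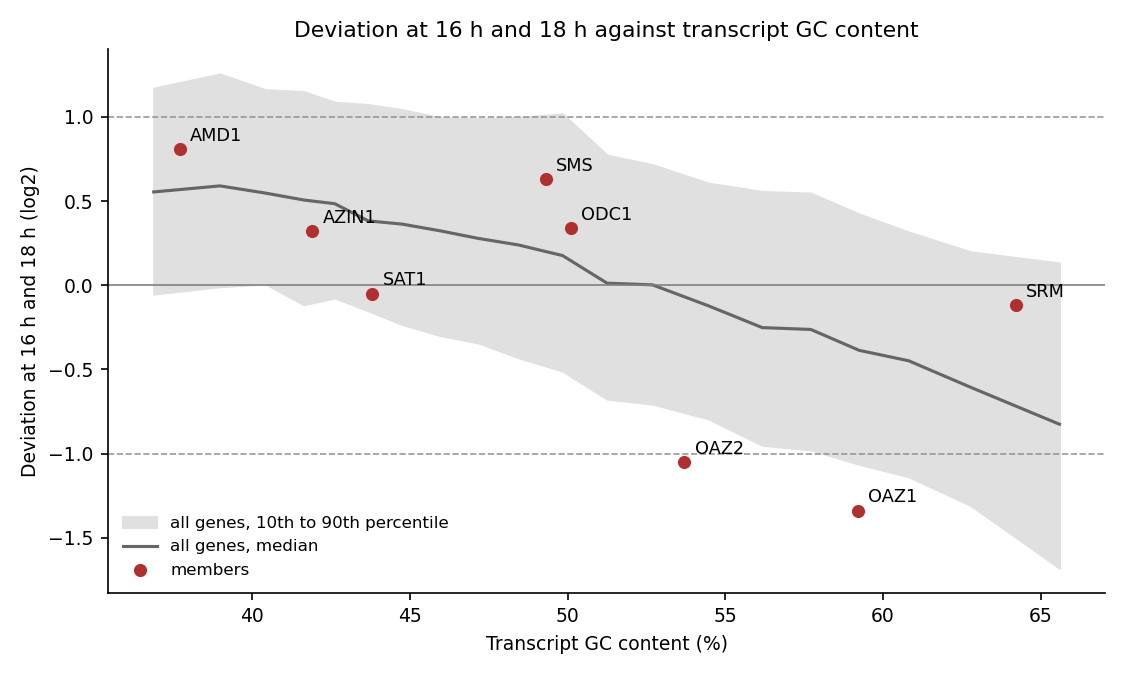
Deviation of 16 h and 18 h from the line between 14 h and 20 h in log2 units (vertical axis) against transcript GC content in percent, with the members as points, the median of all genes as a line and their 10th to 90th percentile as a band, both in 20 bins of gene number. Dashed lines mark 2-fold. OAZ1 and OAZ2 lie below the band at -1.34 and -1.05, and SRM lies inside the band but above the median line.

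At 32 h, the milder STRIPE, the antizymes moved the same way by less. Against the mean of 30 h and 34 h, OAZ1 deviated by -0.36 and OAZ2 by -0.22, both below the range of the same measure at 17 other time points, which 15.4% of all genes were. SRM (0.43) and AMD1 (0.18) were above that range, which 18.4% of all genes were. SMS (0.02), ODC1 (-0.02) and SAT1 were within it. At 6 h OAZ1 (-0.34) and OAZ2 (-0.20) were also near their lower limits, which were their own 32 h values (-0.36 and -0.22). AZIN1 (-0.13) alone among the members was outside, below its range with 5.98% of all genes. None was above, where 15.1% of all genes were. The 17 time points set beside 6 h include 32 h, and those beside 32 h include 6 h. Either library could thus widen the range for the other, and a range without both was not computed.

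MYC and MAX were followed because the pair binds the E-box. MYC lay at 0.93 in rho with SRM and 0.67 with ODC1 over the 10 first-day points, and at -0.27 and -0.50 over the matching second-day points, so the relation did not hold from one day to the next. MYC was 124 FPKM at 0 h, 177 FPKM at 12 h and 145 FPKM at 46 h, and its day difference of -0.17 did not pass the threshold (limma adjusted p = 0.228). MAX lay 2.59-fold above its line at 16 h and 18 h, and its day difference was -0.11 (limma adjusted p = 0.684).

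Of 31 other genes of polyamine metabolism and its surroundings, 25 were in the table and the other 6 (AZIN2, OAZ3, MTAP, ARG1, AGMAT and SLC12A8) were not analysed here. Limma called 3 of 25 lower on the second day and 2 higher, against the 5.16% and 9.57% of all genes given above. In the methionine cycle and methionine salvage, the route that recovers the by-product of both synthases, 2 of 7 genes were lower and 1 was higher. The genes called were all of the salvage route. ADI1, one of its enzymes, was lower by the largest amount of the 25, from 45.2 ± 7.25 to 32.6 ± 6.66 FPKM (SD, 12 time points each; difference -0.46, SE 0.10, limma adjusted p = 0.00793). APIP was lower by 0.18 log2 units at 12 of 12 hours (difference -0.18, limma adjusted p = 0.0499), and MRI1, which acts in the same route, was higher (0.18, limma adjusted p = 0.0454). ADI1 was called in 10 of 10 alternatives, MRI1 in 7 and APIP in 4. Without the pairs that hold 16 h and 18 h, APIP was at -0.12 (limma adjusted p = 0.0683) and MRI1 at 0.18 (limma adjusted p = 0.0488).

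In the group for precursor supply and transport, 1 of 7 was lower and 1 higher. Ornithine aminotransferase OAT, which competes for the substrate of ODC1, was lower, from 177 ± 16.5 to 148 ± 12.9 FPKM (difference -0.25, limma adjusted p = 0.00999, 11 of 12 hours). SLC18B1, a vesicular polyamine transporter, was higher, from 39.5 ± 6.69 to 45.9 ± 5.28 FPKM (difference 0.22, limma adjusted p = 0.0272, 10 of 12 hours). None of the 3 catabolism genes, 4 hypusine genes or 4 MYC network genes passed on the day difference over all 12 matched hours. Without the pairs that hold 16 h and 18 h, 2 of the 4 hypusine genes were called lower, as OAZ1 was, against 6.80% of all genes. DOHH was at -0.26 (limma adjusted p = 0.00648) and EIF5A, near the threshold, at -0.17 (limma adjusted p = 0.0481). Each was called in 2 of 10 alternatives, both of which left these pairs out. SMOX and PAOX, the polyamine oxidases, were at 1.80 ± 0.580 and 2.73 ± 0.613 FPKM, far below SAT1, and SMOX had its highest value at 46 h (2.997 FPKM) as SAT1 did (difference 0.28, limma adjusted p = 0.0941). At 44 h SMOX was at 1.368 FPKM, so this value rests on 1 library of a low gene. PAOX was highest at 14 h (difference 0.14), and SAT2, also on the catabolic side, at 2 h (difference -0.07).

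By JTK, 2 of these 25 genes were called against 13% of all genes. They are SLC18B1 (peak at 18 h, adjusted permutation p = 0.0103) and EIF5A (peak at 6 h, adjusted permutation p = 0.0432), whose product is the protein that receives the hypusine made from spermidine. At 16 h and 18 h EIF5A lay 2.06-fold below its line, with 449, 217.5, 185 and 384 FPKM from 14 h to 20 h. Without 16 h and 18 h, SLC18B1 was called by JTK and EIF5A was not. In all, 3 of the 25 were 2-fold or more below their line and 2 above it, against the 7.11% and 8.95% of all genes given above. DOHH, an enzyme that makes hypusine, lay 2.37-fold below and PAOX 2.89-fold below, while EIF5A2, the second eIF5A gene, lay 2.22-fold above and MAX was the other gene above. With the GC trend removed, MAX was at 1.29 and none of the other 4 was past 2-fold, with PAOX at -0.94, EIF5A at -0.81, DOHH at -0.41 and EIF5A2 at 0.73.

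The genes whose course over the 22 time points was most like that of each member, among 7147 other genes with a symbol that averaged 10 FPKM or more, are given by Spearman's rho as a description. They were UCK2 (0.92), PHB2 (0.91) and DDX21 (0.90) for ODC1, and C1QBP (0.95), NT5DC2 (0.92) and GAPDH (0.92) for SRM. For OAZ1 they were RPLP2, RPL29 and RPS2P5 (0.95 each), which are ribosomal protein genes and a pseudogene of one. OAZ2 was most like PPP2CB (0.88), PSMD10 and RAP2C, a phosphatase subunit, a proteasome assembly factor and a small GTPase. AZIN1 was most like SETD9 (0.92), MRPS18C (0.88) and HSPE1 (0.87), and SAT1 most like DBNDD2 (0.93), PPP2R5C (0.92) and TRAK1 (0.92). The lowest values of this kind were those of SMS, with CDK2AP1 (0.86), ECI2 (0.83) and TOR1AIP2 (0.82), and of AMD1, with WDR3 (0.84), HSPD1 (0.80) and CEP20 (0.80).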

How the data were processed

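RNA of 24 K562 samples was analysed, each assigned to its time point by its labels. The authors aligned reads with STAR to GRCh37, per the processing notes, and deposited FPKM values from Cufflinks and Cuffnorm. Their versions and the annotation are not given in the sources used here. A second deposited table holds a score, which the authors made by taking the Z-score of each gene and then quantile normalizing the time points, and was used as an alternative. Cufflinks divides reads among isoforms by estimate before they are summed per gene, and the depth is not known. All columns were mapped, so 0 were set aside.

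The 12253 genes that averaged 1 FPKM or more were tested on log2(FPKM + 1), which understates changes of low genes. The second day was set against the first with limma 3.58.1 (R 4.3.3), with the hour as a block of 12 matched pairs. JTK used 12 phases of a 24 h cosine and 100000 orderings, and p-values were adjusted over all genes by Benjamini-Hochberg at a threshold of 0.05. Deviations at 16 h and 18 h, from the line between 14 h and 20 h on the log2 scale, have no test. GC content came from GENCODE 29 transcripts and its trend was a polynomial of degree 4. Calculations used Python 3.11.15 with numpy 2.4.6 and scipy 1.17.1, and both tests were checked on simulated data. The simulated noise was independent between time points, without drift or STRIPEs, so the check does not cover these features of the series. Symbols came from a gene name table that matched 12123 of 12285 identifiers.

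All 8 members are named, with related genes past a threshold and the 3 genes most like each member. Of the 16 h and 18 h values, those of MYC and MAX and of the related genes past 2-fold, and the values of SMOX, PAOX and SAT2, were added after they had been seen. The members and lists were chosen with earlier results of these data known.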

Additional observations from a re-analysis of the deposited data

How the results depend on the processing

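The number of members called by JTK was 0 in place of 1 in the cleaned table, without 16 h and 18 h, and with periods of 20 h and 28 h, and also in 2 alternatives added after seeing the data, with the GC trend of each time point removed and without 0 h, 44 h and 46 h. It was 1 in the other 4 alternatives. Of all genes, JTK called 13% in the main fit, 12.6% in the cleaned table and 16.2% without 16 h and 18 h. It called 2.20% with a period of 20 h, 3.57% with 28 h and 7.24% with the GC trend removed. Without 0 h, 44 h and 46 h it called 7.92%, and without 6 h, 16 h, 18 h and 32 h 8.65%. Of the related genes, 0 were called in place of 2 without 6 h, 16 h, 18 h and 32 h and with a period of 28 h, and 1 was called with a period of 20 h, with the GC trend removed and without 0 h, 44 h and 46 h. The number of members called between the days was 4 in place of 2 in the cleaned table (ODC1, SRM and AZIN1 lower, SAT1 higher), 1 without the pairs of 6 h, 16 h, 18 h and 32 h (OAZ1) and 1 with the exact sign-flip permutation test (ODC1). Over all 12253 genes, 1699 were called lower and 2018 higher in the cleaned table, against 632 and 1173 in the main fit. Without the pairs of 6 h, 16 h, 18 h and 32 h the counts were 600 and 1102, and with the sign-flip test 833 and 1225. Of the related genes, 9 were called in place of 5 in the cleaned table, 3 among genes that averaged 10 FPKM or more and 2 with the GC trend removed. Of the 7169 genes that averaged 10 FPKM or more, 351 were called lower and 424 higher. With the GC trend removed, 852 of 12148 were called lower and 1431 higher. Members past 2-fold at 16 h and 18 h were 4 in place of 2 at a threshold of 1.5-fold (AMD1 and SMS in addition) and 1 with the GC trend removed (OAZ2). Of all genes, 23.9% lay 1.5-fold or more above the line and 16.8% below. With the GC trend removed, 4.99% were past 2-fold above and 3.97% below. The cause of these changes was not tested. No call of a member between the days changed sign in any alternative. Over 9 alternatives on the FPKM scale, the day difference of ODC1 lay between -0.37 and -0.28 (limma or permutation adjusted p from 0.00907 to 0.0727, past the threshold in 7) and that of SRM between -0.43 and -0.27 (0.0221 to 0.0882, past it in 6). The day contrast is paired by hour in each alternative. With 1 library per time point and unknown depth, small differences between neighbouring time points cannot be separated from the error of a library.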
